A study of Mus musculus with 4 samples.

Results

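The receptors that share the common gamma chain were described at the transcript level in mouse regulatory T cells. The 9 genes were taken by symbol from the deposited tables: Il2ra, Il2rb, Il2rg, Il4ra, Il7r, Il9r, Il15ra, Il21r and Il13ra1. All 9 were found among the 50600 genes listed. Il2rg encodes the common gamma chain itself. Il13ra1 does not bind that chain, and belongs here because it joins Il4ra in a second receptor for interleukin 4.

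The study sequenced RNA from 4 libraries of primary regulatory T cells of mouse strain C57BL/6NJ, which form 1 group with no other cell type or treatment beside them. Each library has its own biosample, all share 1 donor record, and the labels give the age as unknown and the sex as not collected. Replicates 1 and 2 had Xist and almost no Y-linked transcripts and replicates 3 and 4 the reverse, as in female and male cells, so the 4 libraries did not all come from the same animal. A protocol for differentiating CD4+ T cells is linked, whose content was not used here, and the file headers carry the terms activated and 48h in the names of the alignments. The assay is labelled total RNA-seq, while the linked library protocol is named for polyA+ RNA. No separate animals or cultures are named, so every spread and p-value here covers only these libraries and may be partly technical. Library totals lay between 43821767 and 73819468 counts. Levels are in TPM, counts per exon base scaled to the same sum in every library. A value after ± is the SD over the 4 libraries (n = 4).

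Receptors of this family are built from a private chain that recognises the cytokine and the gamma chain that completes the signalling complex. Interleukin 2 is bound with high affinity when the alpha chain Il2ra joins the beta chain Il2rb and Il2rg, and interleukin 15 uses the same beta and gamma chains with its own alpha chain, Il15ra. The kinase Jak3 attaches to the gamma chain and Jak1 to the chain that pairs with it, such as Il2rb. They activate mainly STAT5 after interleukins 2, 7, 9 and 15, STAT6 after interleukin 4 and STAT3 after interleukin 21. Regulatory T cells are known for constant high Il2ra, low Il7r and a dependence on interleukin 2 for Foxp3.

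The cells were rich in transcripts of the interleukin 2 receptor and in Il21r and Il4ra, chains of the receptors for interleukins 21 and 4. They were poor in Il7r, Il9r and Il15ra, chains of the receptors for interleukins 7, 9 and 15. Il13ra1, a chain of the interleukin 13 receptor and of the second receptor for interleukin 4, was lower still. Of the 9 genes, 8 had at least 1 TPM in all 4 libraries, beside 22.9% of all genes listed and 47.2% of protein-coding genes. There were 5 genes above 100 TPM in every library, beside 3.98% of all genes and 9.09% of protein-coding genes. The median member stood at 115 TPM, compared with a median of 28.6 TPM over the 11593 genes with at least 1 TPM in all libraries. The 9 genes together held 3021 ± 40.4 TPM, of which Il2ra made up 49.3 ± 0.909% and Il2rb 30.1 ± 0.700%.

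**Figure D1:**
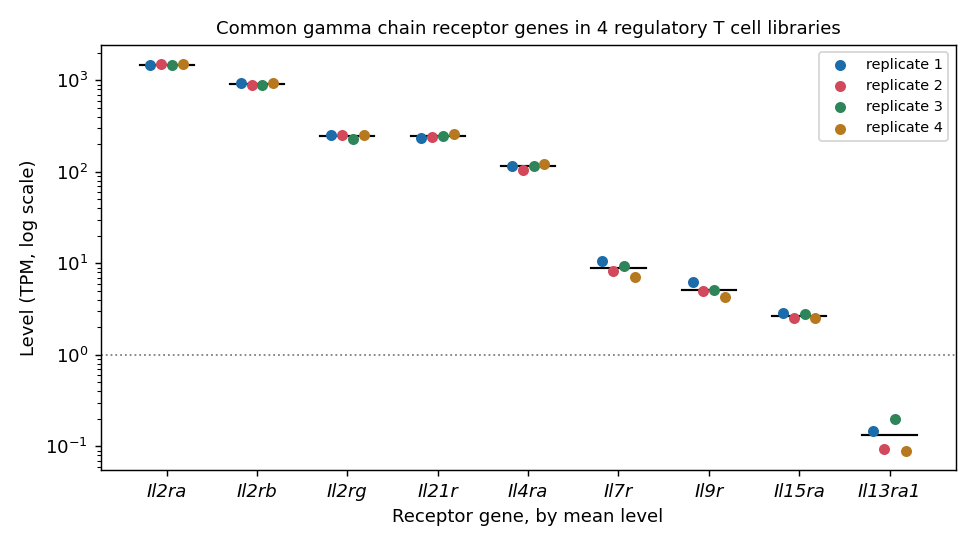
Level of each receptor gene in TPM on a log axis, with 1 point for each of the 4 libraries and a bar at the mean, and the dotted line at 1 TPM. Il2ra, Il2rb, Il2rg, Il21r and Il4ra lie above 100 TPM in every library, Il7r, Il9r and Il15ra between 2.50 and 10.6, and Il13ra1 below 0.2.

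Il2ra, the alpha chain of the interleukin 2 receptor, had 1464, 1510.0, 1484 and 1494 TPM in replicates 1 to 4. No library stood apart, and the coefficient of variation was 1.31%, the smallest among the 9 genes. It ranked 57th of the 21764 protein-coding genes by mean level and took 0.247% of all counts. The gene (ENSMUSG00000026770.5) lies on chromosome 2 from 11642807 to 11693193 of mm10, on the plus strand, and none of its 5711 exon bases is shared with another gene on that strand.

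Il2rb, the signalling chain shared by the receptors for interleukins 2 and 15, had 932, 879, 888 and 938 TPM in replicates 1 to 4. Replicates 1 and 4 were higher and replicates 2 and 3 lower, within a coefficient of variation of 3.28%. It ranked 108th among protein-coding genes. The gene (ENSMUSG00000068227.8) spans 78480553 to 78495066 on the minus strand of chromosome 15. Its deposited exon length of 2785 bases is shorter than the longest transcript of the later annotation, GENCODE M21, at 4194 bases. The level would be 477 ± 15.6 TPM with the longest transcript of every gene as its length. Fragments on bases outside the deposited exons were not counted, so this value can be too low.

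Il2rg, the common gamma chain, had 256, 255, 229.7 and 250.4 TPM in replicates 1 to 4, with replicate 3 the lowest. It ranked 710th among protein-coding genes. The gene (ENSMUSG00000031304.18) spans 101264378 to 101268255 on the minus strand of chromosome X, and its level is a lower limit. Another gene on the same strand, Gm20489, overlaps 728 of its 2387 exon bases, or 30.5%. The command in the file headers has no option to count fragments that overlap both genes. Gm20489 itself had 0 counts in replicates 1 to 3 and 8 in replicate 4. Divided by the 1659 unshared bases instead, Il2rg stood at 368, 367, 330.4 and 360.2 TPM in replicates 1 to 4.

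Il21r, the private chain of the interleukin 21 receptor, had 236, 239.9, 244 and 257 TPM in replicates 1 to 4, with replicate 4 the highest. Il4ra, which binds interleukin 4, had 116, 105, 117 and 123 TPM, with replicate 2 the lowest. These neighbours on the plus strand of chromosome 7 of mm10 are separated by 23954 bases, with Il4ra (ENSMUSG00000030748.9) from 125552120 to 125579474 and Il21r (ENSMUSG00000030745.9) from 125603429 to 125633570. Neither shares exon bases with another gene on its strand.

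Il7r, the private chain of the interleukin 7 receptor and also a partner of Crlf2 in the receptor for thymic stromal lymphopoietin, had 10.6, 8.17, 9.47 and 7.08 TPM in replicates 1 to 4. Il9r, which binds interleukin 9, had 6.29, 5.02, 5.16 and 4.25 TPM. Both were highest in replicate 1 and lowest in replicate 4. Their coefficients of variation were 17.2% and 16.2%, above the 4.71% and 4.94% that counting error alone gives at these counts. Such an excess was not particular to them. Il2ra, Il2rb, Il2rg, Il21r and Il4ra also exceeded counting error, from 1.31% against 0.270% for Il2ra to 6.81% against 0.946% for Il4ra. Il7r (ENSMUSG00000003882.4) lies on chromosome 15 from 9506161 to 9529876, and Il9r (ENSMUSG00000020279.10) on chromosome 11 from 32187541 to 32200279, both on the minus strand.

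Il15ra, which presents interleukin 15 to the beta and gamma chains, had 2.85, 2.50, 2.83 and 2.54 TPM in replicates 1 to 4. It varied by 6.84%, no more than the 7.21% expected from counting error at 160 to 272 counts per library. The gene (ENSMUSG00000023206.16) has 4446 exon bases summed over 18 annotated transcripts, the longest of which holds 2315, and the level with longest transcripts was 4.07 ± 0.281 TPM.

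Il13ra1, a chain of the receptors for interleukins 13 and 4, was close to absent, with 7, 6, 16 and 5 counts in replicates 1 to 4. These counts correspond to 0.149, 0.0938, 0.199 and 0.0894 TPM, and the exact Poisson 95% intervals, which cover counting error only, ran from 0.0290 at the lowest bound to 0.323 at the highest. The libraries could not be told apart at this depth. The gene (ENSMUSG00000017057.9) spans 36112110 to 36171259 on the plus strand of chromosome X.

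Each member was set beside the next in the order of levels by the ratio of their TPM within a library. That order was taken from the mean TPM of these same libraries, so agreement with it is no independent support. In 7 of the 8 neighbouring pairs the upper gene was higher in 4 of 4 libraries with no overlap between ranges, and the two-sided exact sign-flip permutation test gave the smallest p that 4 libraries allow, 2 of 16 sign patterns, which cannot reach 0.05. The order was Il2ra, Il2rb, Il2rg and Il21r, Il4ra, Il7r, Il9r, Il15ra and Il13ra1. Il2rg and Il21r overlapped, with Il2rg higher in replicates 1 and 2 and Il21r higher in replicates 3 and 4 (p = 0.875, exact sign-flip permutation test). Divided by its unshared exon bases, Il2rg exceeded Il21r 1.46-fold, in 4 of 4 libraries, with no overlap and again 2 of 16 sign patterns in the same exact test. Il4ra exceeded Il7r 13.2-fold and Il15ra exceeded Il13ra1 21.3-fold, while no other step passed 4-fold. With longest transcript lengths Il2rg exceeded Il21r and Il7r exceeded Il9r in 4 of 4 libraries with overlapping ranges, and Il9r exceeded Il15ra in 3 of 4.

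Most chains that form 1 receptor stood at unequal transcript levels on the deposited exon lengths. Within a library Il2ra was 1.64 ± 0.0683 times Il2rb, and Il2rb was 3.68 ± 0.178 times Il2rg. On these lengths the gamma chain, whose level is a lower limit, was the lowest of the interleukin 2 receptor. The ratio of Il2ra to Il2rg was 5.73, 5.92, 6.46 and 5.97 in replicates 1 to 4. Il21r lay near Il2rg at 0.989 ± 0.0672 times its level, but at 0.687 ± 0.0467 with the unshared exon bases of Il2rg. On the deposited lengths Il4ra reached 0.467 ± 0.0447 times Il2rg, Il7r 0.0357 ± 0.00661 and Il9r 0.0209 ± 0.00332. Among alpha chains that use Il2rb, Il2ra was 558 ± 44.7 times as abundant as Il15ra. In the pair of the second interleukin 4 receptor, Il13ra1 was 0.00115 ± 0.000434 times Il4ra.

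The 5 private chains that pair with Il2rg, namely Il2rb, Il4ra, Il7r, Il9r and Il21r, summed to 1283 ± 40.7 TPM, or 5.19 ± 0.283 times Il2rg. This sum was chosen after the values were seen. The ratio was 3.61 ± 0.197 when Il2rg was divided by its unshared exon bases, and 3.04 ± 0.175 with longest transcript lengths. Il2rg remained below Il2rb in 4 of 4 libraries under both lengths, at 2.56 ± 0.124 and 1.71 ± 0.0827 Il2rb transcripts for each Il2rg transcript. These settings were not combined, and longest transcript lengths leave Il2rg uncorrected for its shared bases. The order with both changes was not examined. The ratio of Il2ra to Il2rb rose to 3.19 ± 0.133 with longest transcript lengths. Values with the longest Il2rb transcript can understate Il2rb, because fragments outside its deposited exons were not counted. Transcript ratios do not give the ratios of protein chains at the cell surface.

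**Figure D2:**
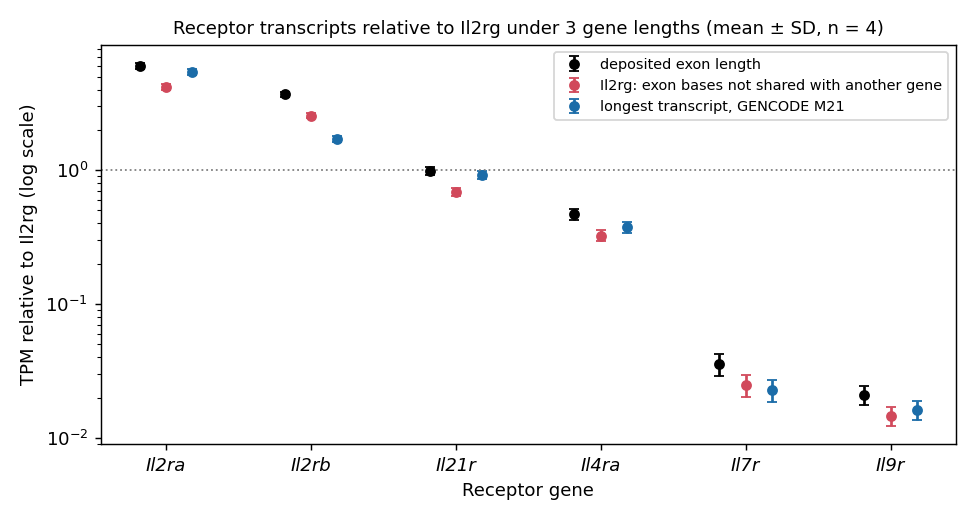
TPM of 6 receptor genes relative to Il2rg on a log axis, as the mean ± SD of 4 libraries, under the deposited exon lengths, the unshared exon length of Il2rg and the longest transcript of each gene. Il2ra and Il2rb lie above the dotted line at 1 under all 3 lengths, while Il4ra, Il7r and Il9r lie below it.

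Il2ra and Il15ra are neighbours, 12096 bases apart on the plus strand of chromosome 2, and their levels lie far apart. The bases before their starts are shown for this reason, with those of Il4ra and Il21r, the other neighbouring pair, whose levels differ 2.12-fold. Each sequence is the 250 bases before the RefSeq start in build GRCm38.p6, 5′ to 3′ on the plus strand. RefSeq starts differ from those of the deposited genes. The Il4ra window runs past the deposited gene start at 125552120, so part of it lies inside that gene. The bases just after the RefSeq start of Il2ra were not found in a GENCODE M21 transcript. For Il15ra the first of its 2 listed starts is used. Capitals mark matches to the motifs named after the sequences.
Il2ra, chr2:11642542-11642791: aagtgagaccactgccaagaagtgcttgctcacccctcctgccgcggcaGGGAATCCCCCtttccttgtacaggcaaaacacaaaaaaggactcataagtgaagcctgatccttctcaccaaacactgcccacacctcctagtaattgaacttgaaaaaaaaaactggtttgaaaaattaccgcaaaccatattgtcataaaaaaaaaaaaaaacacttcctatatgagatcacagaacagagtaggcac
Il15ra, chr2:11705043-11705292: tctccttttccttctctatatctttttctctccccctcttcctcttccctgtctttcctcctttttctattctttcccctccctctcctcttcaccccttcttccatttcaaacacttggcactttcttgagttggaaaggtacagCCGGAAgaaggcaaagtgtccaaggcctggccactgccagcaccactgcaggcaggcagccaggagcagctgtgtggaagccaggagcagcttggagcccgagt
Il4ra, chr7:125552021-125552270: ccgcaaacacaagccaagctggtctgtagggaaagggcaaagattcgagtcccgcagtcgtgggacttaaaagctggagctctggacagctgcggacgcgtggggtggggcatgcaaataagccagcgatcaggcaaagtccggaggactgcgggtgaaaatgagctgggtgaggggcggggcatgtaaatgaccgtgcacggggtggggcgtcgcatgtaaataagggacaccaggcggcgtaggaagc
Il21r, chr7:125603179-125603428: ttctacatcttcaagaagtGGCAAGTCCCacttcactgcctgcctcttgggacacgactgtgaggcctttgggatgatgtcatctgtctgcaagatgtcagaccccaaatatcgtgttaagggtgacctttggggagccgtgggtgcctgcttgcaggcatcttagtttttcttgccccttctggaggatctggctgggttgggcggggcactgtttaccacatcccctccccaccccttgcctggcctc

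A search on both strands used TTC and GAA with 3 or 4 bases of any kind between them for STAT elements, GGG and CC with 5 bases between them for NF-kappaB, TGANTCA for AP-1, CCGGAA for Ets factors and TATAAA for the TATA box. Il2ra held 2 overlapping matches to the NF-kappaB motif, starting 201 and 200 bases before the start, and Il21r held 1 match 231 bases before it. That motif occurred in 45.8% of the 32851 windows of this length. Il15ra held a CCGGAA match at 104 bases, a motif found in 12% of windows, and Il4ra held none of the motifs. The window of the later Il15ra start, which is not printed and lies inside the deposited gene, held the NF-kappaB motif at 102 bases and TGANTCA at 30. Among the other members with a window, Il2rg held CCGGAA 17 bases before its start, and Il7r held the only STAT match, of the form with 3 bases between, at 142 bases, beside 7.02% of all windows. Il13ra1 held 3 matches to the NF-kappaB motif and Il9r held none of the motifs. Windows were listed for 8 members, all but Il2rb. For Il7r and Il13ra1, as for Il2ra, the bases just after the start were not found in a GENCODE M21 transcript. The GC content was 42.4% in Il2ra, 52.8% in Il15ra, 59.6% in Il4ra and 55.6% in Il21r, where the median window had 52.4%. These letters describe the windows and bear on no factor.

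Cytokine genes were mostly low, apart from Il9. Of 8 cytokine genes, 3 had at least 1 TPM in all 4 libraries. Il9 led with 209, 221, 208 and 213 TPM in replicates 1 to 4, although Il9r, its receptor, averaged 5.18 ± 0.840. Il9 transcripts were 41.9 ± 7.01 times as abundant as Il9r transcripts per exon base, on 536 exon bases of Il9 and 4947 of Il9r.

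Il2 was detected at 18.3, 13.5, 13.3 and 15.1 TPM in replicates 1 to 4, with 261 to 329 counts per library. Its alpha chain Il2ra was 101 ± 15.2 times as abundant. Il13 had 6.37, 4.04, 2.80 and 1.82 TPM, so replicate 1 was highest and replicate 4 lowest, as for Il7r and Il9r, and Il13 exceeded Il13ra1 in every library. Il4 lay below 1 TPM in every library, at 0.774, 0.142, 0.226 and 0 TPM.

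The remaining cytokines were at or near 0. Il7 had 3 counts in replicate 3 and Il15 had 1 count in the same library, with 0 in the others. Il21 and Tslp, which encodes thymic stromal lymphopoietin, had 0 counts in all 4 libraries. A count of 0 allows up to 3 counts, equal to at most 0.0452 TPM for Il21 and 0.210 TPM for Tslp. Il21r was thus abundant in cells without detected Il21.

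**Figure D3:**
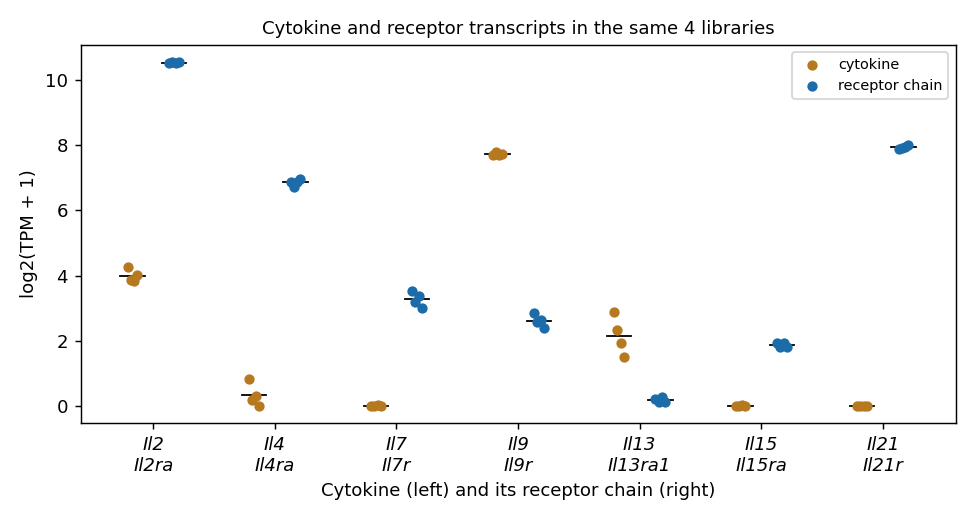
log2(TPM + 1) of 7 cytokine genes and of the receptor chain for each, with 1 point per library and a line at the mean. Il9 and Il13 lie above their receptor chains, and the other 5 cytokines lie below theirs.

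Other type I cytokine receptors, the wider family with the same extracellular fold, were scarcer than the members. Of 24 such genes outside the 9, 10 had at least 1 TPM in all libraries and 0 exceeded 100 TPM in all of them, against 8 and 5 of the 9 members. Over all protein-coding genes these shares were 47.2% and 9.09%. Their median was 0.151 TPM. The highest were Il12rb1, a chain for interleukins 12 and 23, at 85.3 ± 7.83, Il6ra, the interleukin 6 receptor, at 77.9 ± 5.10, and Il27ra at 46.3 ± 18.1. Il27ra had 64.2 and 59.4 TPM in replicates 1 and 2, the libraries with Xist. Replicates 3 and 4, those with Y-linked transcripts, each had 30.7. The part of this division in the level of Il27ra was not tested. Crlf2, the partner of Il7r, had 42.7, 36.2, 48.6 and 45.3 TPM in replicates 1 to 4, above Il7r in every library. Il13ra2, a decoy receptor for interleukin 13, had 0 counts against a floor of 0.104 TPM.

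The kinases and factors downstream were all transcribed. Each of the 4 Janus kinases had at least 1 TPM in every library. Jak3, which binds the gamma chain, had 179, 149.5, 170.2 and 167 TPM in replicates 1 to 4, and Jak1 had 179.7, 178, 181 and 183. Both were lower than Il2rg in every library. All 7 STAT factors passed the same threshold. Stat6 stood at 302 ± 10.8 TPM, Stat5b at 243 ± 8.03 and Stat5a at 221 ± 11.6, with Stat3 at 166 ± 3.45.

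All 12 inhibitors of the pathway were above 1 TPM, led by the phosphatase Ptpn6 at 538 ± 27.3. Cish, a feedback inhibitor induced by STAT5, had 375, 348, 363 and 373 TPM in replicates 1 to 4. Socs1, which blocks Janus kinases, had 280.0, 294, 384 and 301, with replicate 3 the highest. Of 12 adaptor genes and genes of the PI3 kinase arm, 11 passed, led by Pik3cd at 302 ± 23.1, Akt1 at 278 ± 11.1 and Grb2 at 139 ± 3.66, while Irs1 had 0 counts.

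Lists of genes that the pathway is known to induce were also scored. All 16 STAT5 targets were above 1 TPM, including Lta at 2702 ± 98.9, Tnfrsf18 at 580.2 ± 18.2 and Foxp3, the lineage factor, at 294, 269.9, 272 and 320.4 TPM in replicates 1 to 4. That list contains Il2ra. All 10 STAT6 targets passed, led by Irf4 at 773 ± 26.02, Ccr8 at 468 ± 10.6 and Ccr4 at 342 ± 23.2, and that list contains Il4ra. Of 10 STAT3 targets 7 passed, among them Batf at 144 ± 9.08 and Il17f at 46.6 ± 8.03, with a list median of 13.6 TPM against 311 TPM for STAT5 and 177 for STAT6 targets. Most of these genes answer to other signals too, and the levels do not tell which signal acted.

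**Figure D4:**
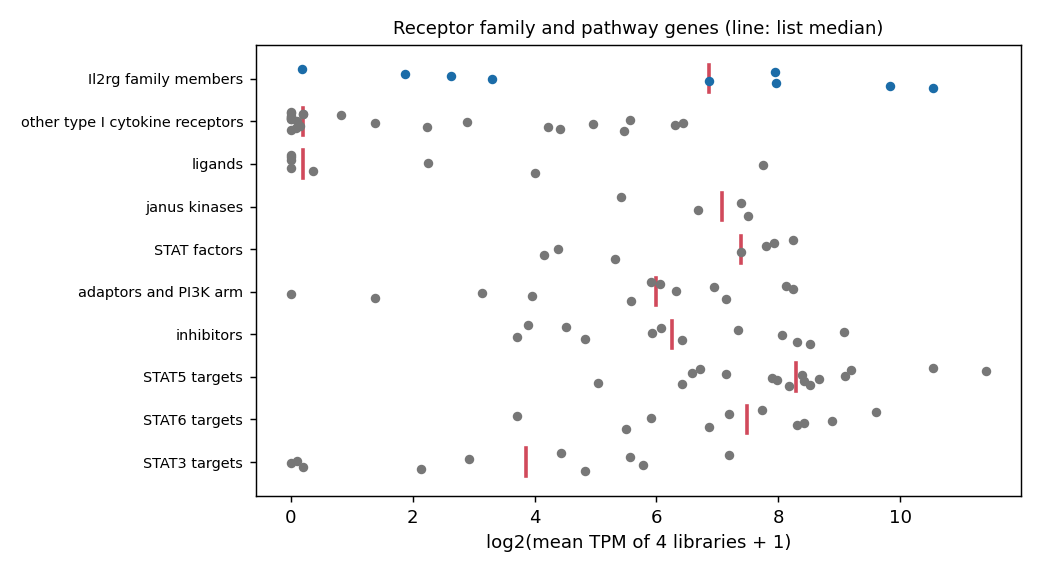
log2(mean TPM + 1) of each gene in the receptor family and in 9 related lists, with a line at the median of each list. The 9 members have a median of 115 TPM, above the 0.151 TPM of the other type I receptors and the 0.146 TPM of the cytokines, and below the 134 TPM of the Janus kinases.

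Genes that bear on how receptors are made and removed were mostly transcribed. All 14 genes for factors that act on the receptor loci in other work had at least 1 TPM in every library, led by Ets1 at 232 ± 6.99, Cbfb at 177 ± 9.97 and Rela at 147 ± 8.90. Of 13 genes for receptor traffic and shedding 12 passed, led by the protease Adam10 at 124 ± 4.34, Cbl at 88.4 ± 5.40 and Hgs at 81.8 ± 5.71.

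The label was checked against marker lists. Of 14 regulatory T cell markers 13 had at least 1 TPM in all libraries, led by Il2ra, Tnfrsf4 at 1190.1 ± 15.4 and Tnfrsf18, while Itgae stayed at 0.419 ± 0.0341. That list contains the member Il2ra, and the study holds no other T cell type to set these levels against. All 9 pan T cell genes passed, led by Trac, Thy1 and Lck. Members of the family are also known in other blood cells, whose lists were low. Summed levels ranged from 15.96 to 19.1 TPM for 11 B cell genes, with 3 expressed, from 4.60 to 6.72 for 12 macrophage and dendritic cell genes, with 2 expressed, and from 0.142 to 0.428 for 10 granulocyte and mast cell genes, with 0 expressed. Lyz2, C1qa, Ncr1 and S100a8 had 0 counts in all libraries. The 10 natural killer and CD8 genes summed to between 75.2 and 98.2 TPM, with 2 expressed, of which Nkg7 made up 72.1 ± 9.56. The 8 innate lymphoid and gamma delta genes summed to between 18.8 and 23.1, with Rora at 13.7 ± 1.04, Kit at 5.12 ± 1.12 and the others below 1 TPM on average. In bulk RNA a smaller share of cells with a transcript and less RNA per cell cannot be told apart.

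Il2rg and Il13ra1 are X-linked and were read beside Xist, which coats and silences 1 X chromosome in female cells. Xist had 172, 145, 0.255 and 0.367 TPM in replicates 1 to 4, and the Y-linked gene Ddx3y had 0.152, 0.0781, 45.1 and 45.0. Eif2s3y, Uty and Kdm5d showed the same division of libraries as Ddx3y, and Tsix stayed below 0.08 TPM. Il2rg had 256 and 255 TPM in replicates 1 and 2 and 229.7 and 250.4 in replicates 3 and 4. Replicate 4 lay close to replicate 2, and replicate 3 was the lowest. How many of all genes divide in the same way was not examined. Il13ra1 was highest in replicate 3 and lowest in replicate 4. The part of Xist in either gene's level was not tested.

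To see which library departs from the rest, edgeR's quasi-likelihood test compared every replicate with the remaining 3 across 12917 genes. The test compares libraries, not conditions, and assumes that the lone library varies like the rest. The 3 libraries on the other side held both the Xist and the Y-linked pattern in every comparison, and its part in these results was not tested. Of all genes tested, 0.0697% were called for replicate 1, 0% for replicate 2, 0.0232% for replicate 3 and 0% for replicate 4. The genes with an unadjusted p below 0.05 numbered 1202, 876, 299 and 322, and DESeq2 called 14, 28, 5 and 0 genes. No member was called in any replicate: 8 were tested in each, Il13ra1 fell below the expression filter, and the Benjamini-Hochberg adjusted p in edgeR ran from 0.538 to 1.00. Of the 32 tests of members, 1 had an unadjusted p below 0.05.

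That single test was for Il4ra, which in replicate 2 had 183 CPM after TMM scaling against a mean of 208 in the others, a log2 difference of -0.18 (SE 0.07) with an adjusted p of 0.680 in edgeR. The 5 abundant members differed by at most 0.18 on the log2 scale in any replicate. Il7r and Il9r had wider differences and wider errors. Il15ra also had wider errors, but its largest log2 difference was only -0.13 (SE 0.26), in replicate 2. Il7r in replicate 4 had 6.61 CPM against a mean of 8.79, a log2 difference of -0.41 (SE 0.20), and Il9r in replicate 1 had 9.04 CPM against 6.95, a difference of 0.38 (SE 0.19), with adjusted p of 1.00 and 0.538 in edgeR. No member passed the threshold under another tool, scaling or filter or with a library left out, where it received an adjusted p. DESeq2 gave an adjusted p to 8 members for replicate 1, 5 for replicate 2 and 9 each for replicates 3 and 4, and for replicate 2 Il15ra was among those without one.

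**Figure D5:**
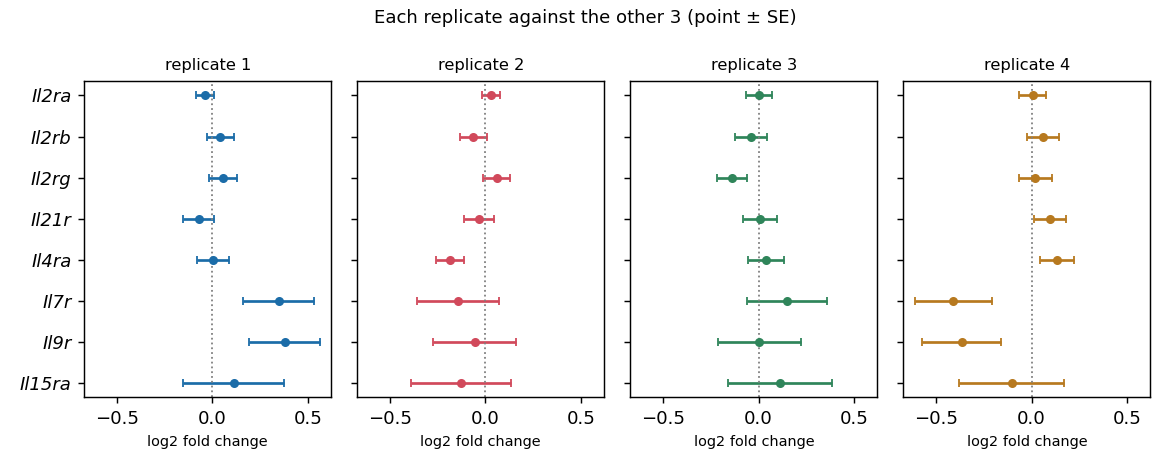
log2 fold change of 8 receptor genes in each replicate against the other 3, with points and bars of 1 SE from edgeR's fit. The 5 abundant genes stay within 0.18 of 0, and Il7r and Il9r reach -0.41 and 0.38 with SE near 0.2.

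The median spread of the members lay near that of expressed genes, although the sets are not alike. Their median coefficient of variation was 6.81%, next to 6.52% over the 11593 genes with at least 1 TPM in all libraries. The members ran from 1.31% for Il2ra to 39.0% for Il13ra1, which falls below that threshold. Protein-coding genes nearest to the interleukin 2 receptor chains were sought by the largest absolute difference in log2(TPM + 1) over the 4 libraries. Nearest to Il2ra were Prelid1, Hnrnpa1 and Rack1, with largest differences of 0.07, 0.08 and 0.09. Nearest to Il2rb were Calr, Ddb1 and Thy1 (0.06, 0.08 and 0.08), and nearest to Il2rg were Ndufs8, Rgs16 and Sfxn1 (0.06, 0.08 and 0.09).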

How the data were processed

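Per the file headers, the authors counted paired, reverse-stranded fragments over the exons of GENCODE M13 genes (mm10) using featureCounts 1.4.6-p4. The deposited values are raw counts, with the summed exon length of each gene, with the aligner version not given in the sources used here. No option to count fragments that overlap several genes is in the headers. Symbols came from GENCODE M21 by identifier without version, for 50376 of 50600 genes, and the rest held at most 0.00963% of a library's counts.

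TPM was computed here from counts and exon lengths. Pairs of libraries differed beyond sampling noise, with a chi-square per degree of freedom of 11.1 to 24.4, and were treated as 4 replicates. edgeR 4.0.16 used TMM, filterByExpr and Benjamini-Hochberg adjustment at 0.05 over all genes tested, and was tested on simulated data. DESeq2 1.42.0 was an alternative, beside another scaling, no filter, other lengths and scaling sums, and each library left out. Named genes were all members, the 3 highest genes of each list, a set of ligands, kinases and targets, the sex-linked list, and the 3 genes nearest in level to Il2ra, Il2rb and Il2rg. Genes at 0 or outside that rule (Stat3, Irs1, Itgae, Gm20489, Il4, Il21, Tslp and markers at 0) were named after their values were seen, and 1 gene that the rule names is not reported here. The members and lists were chosen with earlier results of these data known. Intervals and floors cover counting error only.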

Additional observations from a re-analysis of the deposited data

How the results depend on the processing

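The count of 8 expressed members was 8 with longest transcript lengths and without each replicate, 6 at a threshold of 5 TPM and 7 at 1 FPKM. Of the 8 neighbouring pairs in the order of levels, 7 held in every library with longest transcript lengths, with CPM and without each replicate, and 8 with unshared exon length. With CPM, which is not divided by length, Il21r exceeded Il2rg in 4 of 4 libraries. Il4ra also exceeded Il2rg on that scale in 4 of 4 libraries, with means of 201 and 172 CPM. Those 2 genes are not a neighbouring pair, so the count of pairs does not show this change of order. The median coefficient of variation was 5.59% to 7.22% without each replicate and 5.74% for CPM after TMM over the members that passed the filter. Unshared exon length was chosen after seeing the data.

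Ratios between chains depend on the gene length used. For Il2rb and Il7r the longest transcript, at 4194 and 3540 bases, exceeds the deposited exon length of 2785 and 3208. Counts cover only the deposited exons, so the levels of these genes with longest transcripts can be too low. With longest transcript lengths the ratio was 3.19 for Il2ra to Il2rb, 1.71 for Il2rb to Il2rg, 5.45 for Il2ra to Il2rg, 0.00853 for Il15ra to Il2rb, 0.373 for Il4ra to Il2rg, 0.0227 for Il7r to Il2rg, 0.920 for Il21r to Il2rg, 0.0162 for Il9r to Il2rg and 376 for Il2ra to Il15ra. With the unshared exon length of Il2rg the ratio to Il2rg was 2.56 for Il2rb, 4.18 for Il2ra, 0.324 for Il4ra, 0.0248 for Il7r, 0.687 for Il21r and 0.0146 for Il9r.

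The counts of genes called in edgeR, 9, 0, 3 and 0 for replicates 1 to 4, were 105, 60, 35 and 16 with no low-count filter, and 14, 28, 5 and 0 by DESeq2. Leaving out 1 of the other libraries gave 23 genes for replicate 1 (without replicate 3) to 341 (without replicate 4), and 3 genes for replicate 2 (without replicate 3) to 52 (without replicate 1). It gave 16 to 21 genes for replicate 3 (without replicates 1 and 4) and 2 to 9 for replicate 4 (2 without replicate 1 or 2, 9 without replicate 3). The cause was not tested. These settings called 0 members, of which DESeq2 gave only 5 an adjusted p for replicate 2. No paired analysis was possible because the libraries form 1 group.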
